A study of Arabidopsis thaliana and Zea mays with 12 samples.

Results

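The genes described here are the 3 CBF transcription factors of Arabidopsis thaliana, CBF1 (AT4G25490), CBF2 (AT4G25470) and CBF3 (AT4G25480), and 7 COR genes of the cold response, COR15A (AT2G42540), COR15B (AT2G42530), KIN1 (AT5G15960), KIN2 (AT5G15970), COR47 (AT1G20440), ERD10 (AT1G20450) and RD29A (AT5G52310). They were chosen by gene identifier and not by a limit on their values, but with earlier results of these data known. The same holds for the gene lists set beside them, so counts given against all genes are descriptions only. All 10 were found among the 27411 genes of the expression table. The series asks where N4-acetyldeoxycytosine (4acC), an acetylated DNA base, lies in the genome and how it relates to gene expression. Of its 12 samples, the 2 with expression values are mRNA-seq libraries from leaves of wild-type (WT) Col-0 plants, aged 3 weeks, grown at 22 °C with no treatment. The other 10 samples were not analysed here. No cold-treated plants were compared, so every value below is a level in leaves of plants grown at 22 °C and none is a response to cold.

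The CBF factors (also called DREB1 factors) are AP2/ERF transcription factors that are induced within a short time of a fall in temperature. They bind the C-repeat/dehydration-responsive element (CRT/DRE), whose core is CCGAC, in the promoters of COR genes. The COR genes encode hydrophilic proteins, among them dehydrins and other late embryogenesis abundant (LEA) proteins, which protect membranes and enzymes when cells lose water to ice. In warm-grown plants the CBF genes are kept low by repressors and are gated by the circadian clock.

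Expression was given in FPKM, a count of sequenced fragments scaled to the kilobases of exon and to the size of the library, so that levels of different genes can be set side by side within a library. Each value below is given for replicate 1 and then replicate 2, and means carry the SD of these 2 biological replicates. All 10 genes had a mean above 1 FPKM, a level passed by 47.7% of all 27411 genes. The median over the 7 COR genes was 57.6 FPKM and that over the 3 CBF factors was 16.6 FPKM, against 0.823 FPKM over all genes. Both families therefore had medians above that of the whole table in leaves of plants grown at 22 °C. In whole leaves, a lower level in each cell and fewer cells that express a gene cannot be told apart.

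**Figure D1:**
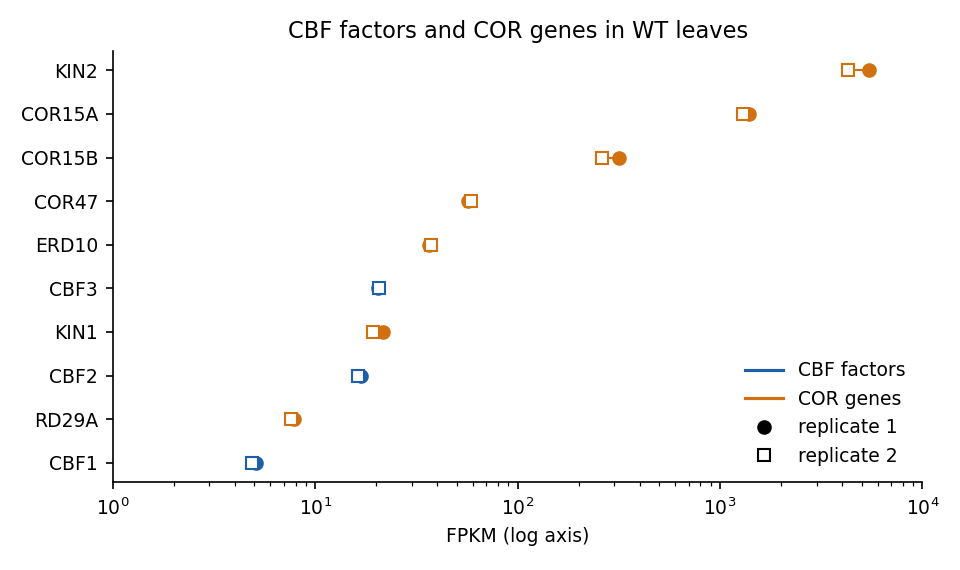
FPKM of the 3 CBF factors (blue) and the 7 COR genes (orange) in WT leaves on a log axis, with replicate 1 as filled circles and replicate 2 as open squares joined by a line. The levels run from 4.99 FPKM for CBF1 to 4871 FPKM for KIN2, and the ranges of the replicates overlap only for CBF3 and KIN1.

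The libraries came from leaf tissue by their labels, while the methods name plants as the RNA source and give no organ. Of the tissue markers, those of leaf were by far the highest. The 4 leaf markers (RBCS1A, CAB1, CAB3 and CA1) had means between 1884 and 40786 FPKM. The 3 flower markers (AG, PI and AP3) were below 1 FPKM and the 4 seed markers (OLE1, CRA1, CRU3 and SESA3) were at most 0.0156 FPKM, the last 2 listed at 0. Of 3 root markers, PYK10 and PER39 stood at 7.50 and 7.16 FPKM (ranks 6228 and 6372), near RD29A at 7.75 FPKM. PER57 stood at 0.0449 FPKM. Whether roots or other tissue had a part in the levels below was not tested. In single-transcript genes 48.8% and 50.9% of the values near that of 1 read fell within 2% of a fixed step, which put the totals behind the 2 libraries at about 93100000 and 106000000 reads or fragments.

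CBF3 was the highest of the CBF factors, at 20.4 and 20.6 FPKM. CBF2 stood at 16.8 and 16.3 FPKM. CBF1 was the lowest, at 5.11 and 4.88 FPKM, with a mean of 4.99 ± 0.165 FPKM (SD, n = 2). The order CBF3, CBF2, CBF1 was the same in both replicates, and no 2 of the 3 genes had overlapping ranges. On the plain FPKM scale CBF3 was 4.00-fold and 4.21-fold as high as CBF1 in replicates 1 and 2, CBF2 was 3.28-fold and 3.35-fold as high as CBF1, and CBF3 was 1.22-fold and 1.26-fold as high as CBF2. CBF3 thus gave 48.3% and 49.2% of the summed FPKM of the 3 genes, and CBF1 gave 12.1% and 11.7%. Each gene has 1 annotated transcript and 1 exon, so the choice of isoform does not enter these ratios.

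The 3 CBF genes lie side by side on the minus strand of chromosome 4 in the RefSeq annotation of TAIR10.1, in the order CBF2 (13015250 to 13016235), CBF3 (13018010 to 13019400) and CBF1 (13021780 to 13022996). There were 1774 bases between CBF2 and CBF3 and 2379 bases between CBF3 and CBF1, with no other coding gene in either gap. Their coding sequences were 86.3% identical between CBF2 and CBF1, 85.0% between CBF3 and CBF1, and 86.7% between CBF2 and CBF3. No stretch of 100 bases was shared exactly by any pair of their transcripts, so a full read of 150 bases matches only 1 of the 3 exactly. CBF2 and CBF1 shared a run of 68 bases. Shorter or trimmed reads could match more than 1 gene, and how such reads were shared out is not given. Of the cluster, CBF2 and CBF3 stood outside the levels of the genes on each side, and CBF1 did not. ABCB28, a transporter gene next to CBF2, had 3.37 and 3.46 FPKM, and RS40, a splicing factor gene next to CBF1, had 8.86 and 8.42 FPKM. CBF1 was thus above ABCB28 and below RS40, while CBF2 and CBF3 were above both neighbours in each replicate.

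The evening element AAATATCT, a motif through which clock factors act on evening-phased genes, was found in the 250 bases before the annotated start of all 3 CBF genes, on either strand. The same window held it in 4.84% of 26704 coding genes and in 1 of the 7 COR genes (KIN1). The match lay 51 bases before the annotated start of CBF2, 199 before that of CBF3 and, on the opposite strand (AGATATTT), 81 before that of CBF1. None of the 3 windows held a CCGAC. The 3 windows are shown to let the distance and strand of that element be compared, 5′ to 3′ on the minus strand, with the match in capitals (RefSeq TAIR10.1, CBF1 chr4:13022997-13023246, CBF2 chr4:13016236-13016485, CBF3 chr4:13019401-13019650). A match describes the letters of a window and does not show that a factor binds there. The distances and the contrast with the COR genes depend on annotated starts, which lie 149 to 434 bases before the coding start in the CBF genes. In the 500 bases before the coding start, 2 CBF genes and 5 of the 7 COR genes held the element, against 8.32% of coding genes. CBF1 held none there, since its match, 81 bases before a start 434 bases from the coding start, fell just outside. The CBF3 match counted there lies closer to the coding start than the one shown, which also fell outside that window.
CBF1: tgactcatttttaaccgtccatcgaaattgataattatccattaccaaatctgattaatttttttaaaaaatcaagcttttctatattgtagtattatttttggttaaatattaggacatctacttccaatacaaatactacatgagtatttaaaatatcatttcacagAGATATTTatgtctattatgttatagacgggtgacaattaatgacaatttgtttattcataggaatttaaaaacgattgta
CBF2: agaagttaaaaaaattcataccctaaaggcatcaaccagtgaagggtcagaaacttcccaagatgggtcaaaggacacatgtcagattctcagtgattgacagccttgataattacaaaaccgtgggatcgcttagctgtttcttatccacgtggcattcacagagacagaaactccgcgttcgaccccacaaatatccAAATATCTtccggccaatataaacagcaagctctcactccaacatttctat
CBF3: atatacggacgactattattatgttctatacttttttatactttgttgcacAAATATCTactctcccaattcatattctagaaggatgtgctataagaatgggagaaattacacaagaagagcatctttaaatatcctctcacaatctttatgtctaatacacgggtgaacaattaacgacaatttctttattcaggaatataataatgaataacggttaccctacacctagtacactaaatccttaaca

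Among the COR genes the levels spanned a wider range. KIN2 (also called COR6.6), which encodes a small hydrophilic LEA-like protein, had 5460 and 4282 FPKM, with a mean of 4871 ± 833 FPKM. It was rank 29 of all genes by mean FPKM. Its tandem neighbour KIN1, which encodes a protein of the same length, had 21.7 and 19.3 FPKM, with a mean of 20.5 ± 1.73 FPKM. KIN2 was thus 251-fold as high as KIN1 in replicate 1 and 222-fold as high in replicate 2, and the log2 ratio of the means with 1 FPKM added to each was 7.82. KIN2 alone made up 74.9% and 71.7% of the summed FPKM of the 7 COR genes.

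The difference within the KIN pair stood against close likeness of the 2 genes. KIN1 (chromosome 5, 5209717 to 5210826, plus strand) and KIN2 (5211719 to 5212743, plus strand) are 892 bases apart, and each has 3 exons and a coding sequence of 201 bases. The coding sequences differed at 10 of 201 bases (95.0% identity), and the longest exact run they shared was 58 bases. No 100-base stretch was common to both transcripts, and 1.43% of the 50-base stretches of KIN2 occurred in KIN1. Shorter or trimmed reads could still match both genes, and how such reads were shared out is not given. The 2 coding sequences are shown to let these differences be seen, 5′ to 3′, with each base that differs in capitals (RefSeq TAIR10.1, within chr5:5211719-5212743 and chr5:5209717-5210826).
KIN2: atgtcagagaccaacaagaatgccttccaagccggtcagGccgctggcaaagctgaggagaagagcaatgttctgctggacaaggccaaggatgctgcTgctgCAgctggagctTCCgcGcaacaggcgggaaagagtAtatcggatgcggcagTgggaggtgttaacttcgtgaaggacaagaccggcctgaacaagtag
KIN1: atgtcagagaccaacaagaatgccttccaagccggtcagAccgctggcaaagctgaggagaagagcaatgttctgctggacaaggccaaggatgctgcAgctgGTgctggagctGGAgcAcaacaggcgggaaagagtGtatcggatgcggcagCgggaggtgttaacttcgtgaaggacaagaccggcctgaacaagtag

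COR15A, which encodes a chloroplast stroma protein that stabilises the inner envelope on freezing, had 1388 and 1303 FPKM, with a mean of 1346 ± 60.1 FPKM at rank 100. Its paralogue COR15B had 317 and 262 FPKM, with a mean of 289 ± 39.3 FPKM at rank 421. COR15A was 4.38-fold and 4.98-fold as high as COR15B in replicates 1 and 2. The ranges of the pair did not overlap. The genes follow each other on the minus strand of chromosome 2, COR15B at 17708593 to 17710433 and COR15A at 17710441 to 17712330, with 7 bases between them, and their coding sequences were 82.6% identical. COR15B shared 468 exonic bases with AT2G42520 on the opposite strand, a gene for a P-loop nucleoside triphosphate hydrolase whose mean was 5.64 FPKM. The methods and labels do not say whether strand was used in counting, so reads in that overlap cannot be assigned to either gene. COR15A has 4 annotated transcripts whose exon lengths differ by up to 2.63-fold, so its FPKM depends on the isoform lengths that the counting assumed.

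COR47 and ERD10 encode acidic dehydrins that bind water and membranes. COR47 had 56.7 and 58.5 FPKM, with a mean of 57.6 ± 1.21 FPKM. ERD10 had 36.3 and 37.3 FPKM, with a mean of 36.8 ± 0.676 FPKM. COR47 was 1.56-fold and 1.57-fold as high as ERD10, the most even ratio between paralogues across the replicates, and the ranges did not overlap. The pair lies on the minus strand of chromosome 1, COR47 at 7084409 to 7086873 and ERD10 at 7087903 to 7089606, with 1029 bases between them and 73.5% identity of their coding sequences.

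RD29A (also called LTI78 and COR78), whose promoter is the standard model of a CRT/DRE promoter, was the lowest of the COR genes at 7.88 and 7.62 FPKM, with a mean of 7.75 ± 0.187 FPKM. KIN2 was 693-fold and 562-fold as high as RD29A in the 2 replicates. RD29A (chromosome 5, 21240717 to 21243644, plus strand) also has a tandem neighbour, RD29B (LTI65), a gene known mainly for its response to abscisic acid (ABA). RD29B had 0.0503 and 0.0178 FPKM, which corresponded to about 10.2 and 4.1 reads, so RD29B was near the lower limit of these libraries. RD29A was 157-fold and 429-fold as high as RD29B on the plain FPKM scale, ratios that rest on the few reads of RD29B. With 1 FPKM added to each mean, the log2 ratio was 3.08.

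The order of the 10 levels by mean FPKM was KIN2, COR15A, COR15B, COR47, ERD10, CBF3, KIN1, CBF2, RD29A and CBF1. Of the 45 pairs among them, only CBF3 and KIN1 had overlapping replicate ranges, with KIN1 the higher in replicate 1 and CBF3 the higher in replicate 2. COR15B was 5.59-fold and 4.48-fold as high as COR47, next in the order. The CBF factors did not lie below all of their targets, since CBF3 and CBF2 stood above RD29A and the latter was above CBF1 alone. The genes were measured in the same 2 libraries of 1 condition, so these orders are given by their ranges without a test. Against all genes, KIN2 and COR15A were within the highest 1% (274 genes), and CBF1, at rank 7471, was above 72.7% of genes.

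Together the 10 genes took 0.735% of the summed FPKM in replicate 1 and 0.618% in replicate 2. The 3 CBF factors took 0.00424% and 0.00430%. Without KIN2 the share of the other 6 COR genes was 0.183% and 0.174%, so the difference in the total between the replicates was mostly that of KIN2. KIN2 lay 0.35 lower in replicate 2 on the log2(FPKM + 1) scale, COR15B 0.28 lower and KIN1 0.16 lower. The other 7 genes lay within 0.09 of equality on that scale, with CBF3 at 0.01 and COR47 and ERD10 each at 0.04. None of the 10 was 1.5-fold or more apart between the replicates, as were 0.383% of all genes.

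The median of this log2 ratio over the 10 genes was -0.05, against -0.07 over the 13074 genes with a mean above 1 FPKM. In all, 7 of the 10 genes were lower in replicate 2, as were 68.3% of those 13074 genes. The KIN genes are short, with exon lengths of 750 bases for KIN2 and 829 for KIN1. In the shortest 1307 of these genes, with exons of up to 846 bases, the median ratio was -0.24, and KIN1 and KIN2 were the only members among them. After a correction for exon length and GC content across genes the ratio of KIN1 was 0.00, that of KIN2 was -0.18 and that of COR15B was -0.23, while that of RD29A moved away from 0, from -0.04 to -0.18. At the annotated exon lengths KIN2 rested on about 381234 and 339013 reads, for which the 95% counting interval of its plain log2 ratio was -0.36 to -0.34. CBF1, with the fewest reads of the 10 (about 579 and 627), had an interval of -0.23 to 0.10, which includes 0. Intervals of this kind cover counting error only.

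**Figure D2:**
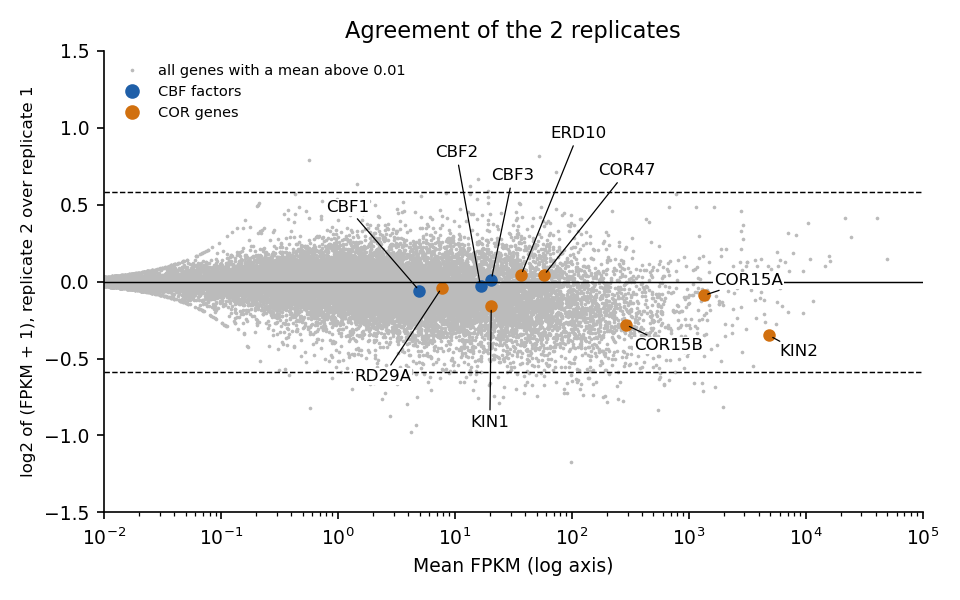
Log2 ratio of replicate 2 to replicate 1 with 1 FPKM added, against mean FPKM on a log axis, for all genes with a mean above 0.01 (grey), the CBF factors (blue) and the COR genes (orange), with dashed lines at 1.5-fold. All 10 genes lie between the dashed lines, with KIN2 the farthest from 0 at -0.35.

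Each of the 5 tandem groups was set beside the coding genes on either side to see whether its level was shared with its surroundings. Of the 20 nearest such genes, 2 on each side of a group and RD29B among them, 10 were above 1 FPKM, against 47.7% of all genes, and the median was 1.03 FPKM. With 5 genes on each side, 21 of 50 were above 1 FPKM and the median was 0.490 FPKM. The KIN pair lay between AT5G15950, a gene of S-adenosylmethionine decarboxylase that was listed at 0 in both replicates, and AT5G15980, a pentatricopeptide repeat gene with 1.03 and 0.861 FPKM. Next to COR15A, AT2G42550 was listed at 0. Beside COR47, the flanking gene AT1G20430 had 70.6 and 52.1 FPKM, a range that included both values of COR47, and AT1G20460 on the side of ERD10 had 23.4 and 20.8 FPKM, below ERD10. Beside RD29A, the cytochrome P450 gene CYP96A4 had 4.32 and 4.46 FPKM.

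**Figure D3:**
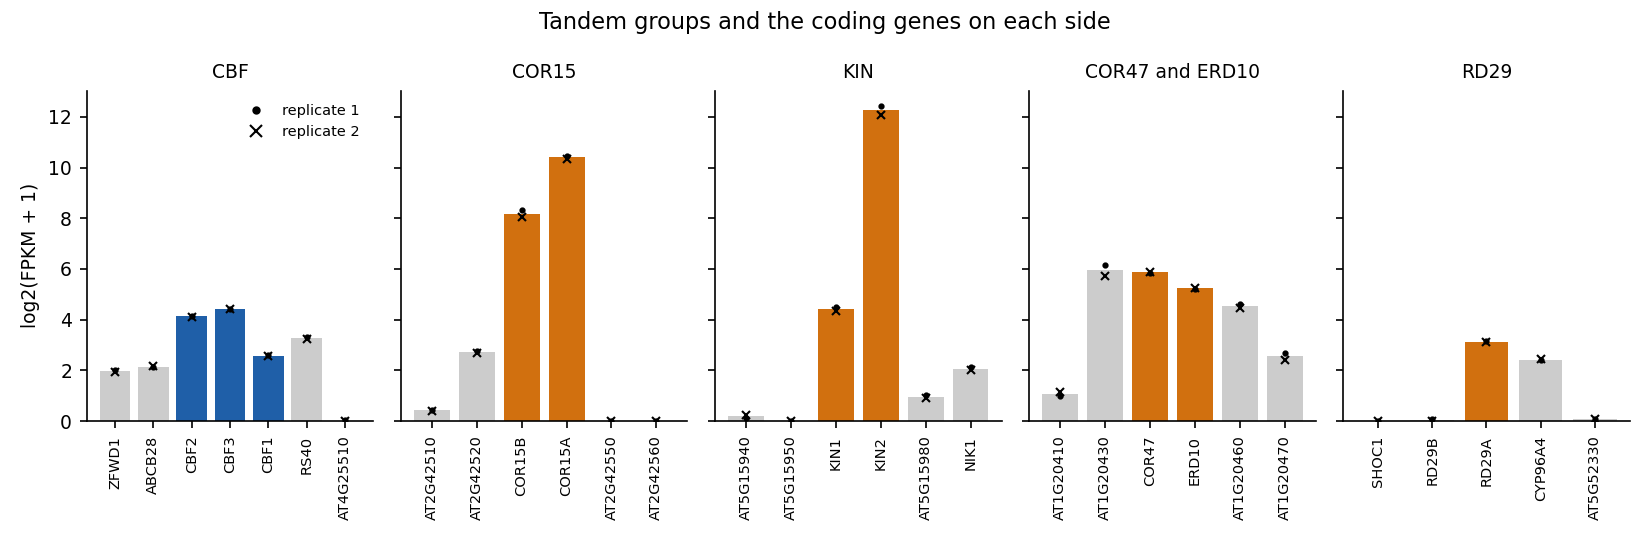
Bars of log2(mean FPKM + 1) for the 5 tandem groups (blue for CBF factors, orange for COR genes) and up to 2 coding genes on each side (grey) in gene order, with replicate 1 as dots and replicate 2 as crosses. COR15 and KIN genes stand far above their flanking genes, whereas AT1G20430 at 61.4 FPKM is level with COR47 at 57.6 FPKM.

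The 10 genes were next searched for the CRT/DRE core, CCGAC, on both strands. In the window from 250 bases before to 50 after the annotated start, COR15A held 2 matches and RD29A held 4, and the other 8 genes held none. The same window held the motif in 15.0% of 26704 coding genes. Both windows are shown without their 50 transcribed bases, 5′ to 3′ on the strand of the gene, with each CCGAC or its complement GTCGG in capitals (RefSeq TAIR10.1, COR15A chr2:17712331-17712580, minus strand, and RD29A chr5:21240467-21240716, plus strand). The matches of RD29A lay 140, 90 and 33 bases before the annotated start, and the last just after it, and those of COR15A lay 142 and 79 bases before.
COR15A: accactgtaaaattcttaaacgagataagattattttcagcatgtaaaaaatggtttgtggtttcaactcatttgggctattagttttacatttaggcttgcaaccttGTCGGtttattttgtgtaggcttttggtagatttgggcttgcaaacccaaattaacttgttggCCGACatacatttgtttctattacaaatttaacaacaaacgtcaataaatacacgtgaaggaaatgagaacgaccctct
RD29A: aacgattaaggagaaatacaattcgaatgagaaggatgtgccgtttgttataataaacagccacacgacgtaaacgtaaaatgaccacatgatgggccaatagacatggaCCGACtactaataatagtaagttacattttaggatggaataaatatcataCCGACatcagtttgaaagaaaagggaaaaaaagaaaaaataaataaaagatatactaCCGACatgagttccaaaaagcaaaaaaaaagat

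The annotated starts lie 149 to 1209 bases before the coding start in these genes, and the earlier window therefore missed much of the sequence close to the coding start. In a second window, the 500 bases before the coding start, chosen after those distances were seen, all 7 COR genes held a CCGAC, and none of the 3 CBF genes did. The motif was in 23.4% of the same windows over 26704 coding genes. The 7 COR genes held 13 matches, all 13 on the strand of the gene and all 13 preceded by A or G, between 178 and 443 bases before the coding start. The opposite-strand match of COR15A shown above fell just outside this window. It lies 142 bases before an annotated start that is itself 364 bases before the coding start. The match with its preceding A or G was in 12.9% of all windows. By the annotation, 9 of the 13 lie within the 5′ UTR.

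The match nearest to the coding start, or the first of 3 overlapping matches in ERD10, is shown for each COR gene with 10 bases on each side, to let the surroundings be compared between paralogues. The sequences run 5′ to 3′ on the strand of the gene with CCGAC in capitals (RefSeq TAIR10.1, COR15A chr2:17712218-17712242, minus strand, COR15B chr2:17710124-17710148, minus strand, KIN2 chr5:5211771-5211795, plus strand, KIN1 chr5:5209804-5209828, plus strand, COR47 chr1:7085918-7085942, minus strand, ERD10 chr1:7089371-7089395, minus strand, RD29A chr5:21240711-21240735, plus strand). KIN2 and KIN1 were identical at 24 of the 25 bases around the site, COR15A and COR15B at 20, and COR47 and ERD10 at 17, or at 14 with either of the other matches of ERD10. The site of KIN2 lies 185 bases before its coding start and that of KIN1 178 bases before.
COR15A: aatttcatggCCGACctgctttttt
COR15B: aacttgatggCCGACctcttttttc
KIN2: taaaaagctaCCGACataaggcaaa
KIN1: taaatagctaCCGACataaggcaaa
COR47: tattcatctaCCGACttcaagaaat
ERD10: tattcatccaCCGACcgaccgacgt
RD29A: aaagatcaagCCGACacagacacgc

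Of the other motifs in the 500-base window, ACGTG, the core of the ABA-responsive element (ABRE), was in 9 of the 10 genes against 35.0% of all windows, ERD10 being the exception. KIN2 held 7 matches and KIN1 5, in which a palindromic CACGTG counts once on each strand. AAATATCT was in 7 of the 10 genes, 5 COR and 2 CBF genes, against 8.32%. CANNTG, the site of bHLH factors such as ICE1, was in 8 against 77.1%, and CGCG, the core site of CAMTA factors, was in 4 against 20.9%. No CCGAC overlapped a match of ACGTG, AAATATCT, CANNTG or CGCG, while 20 pairs of ACGTG and CANNTG matches overlapped. With 10 genes in 5 tandem groups, these counts are not independent of each other.

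**Figure D4:**
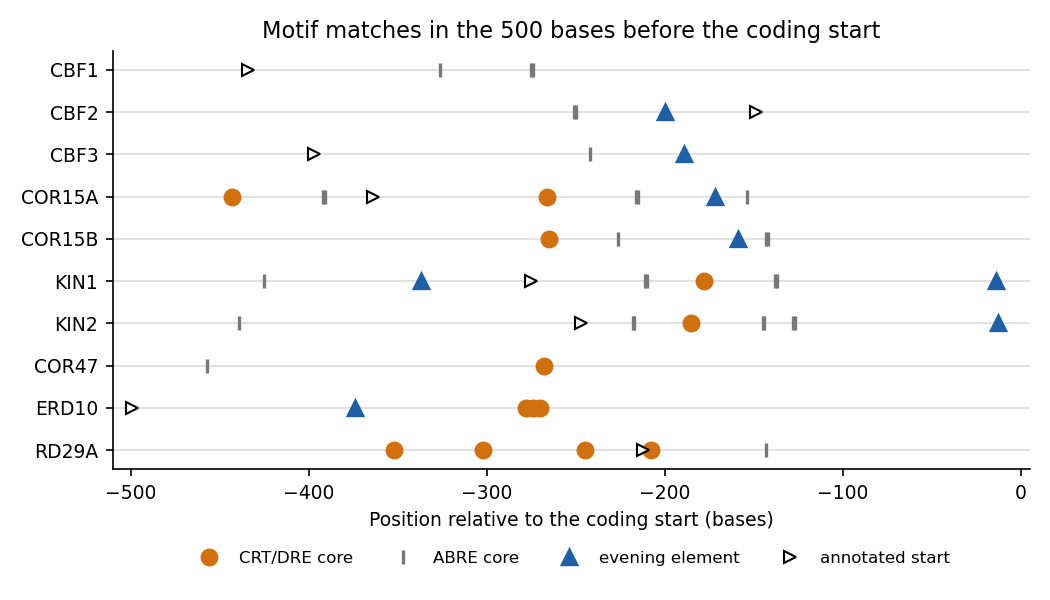
Positions of matches to the CRT/DRE core (orange circles), the ABRE core (grey ticks) and the evening element (blue triangles) in the 500 bases before the coding start of each gene, with open arrowheads at annotated starts that fall in the window. Every COR gene carries a CRT/DRE core between 178 and 443 bases before the coding start, and no CBF gene carries one.

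Other DREB1 and DREB2 factors were also measured, of which CBF4, DDF1 and DDF2 are DREB1 paralogues of the CBF factors. None of these 6 factors was above 1 FPKM, against 47.7% of all genes, and their median was 0.0704 FPKM. The highest was DREB2B at 0.352 and 0.258 FPKM, followed by DREB2A, a drought and heat factor, at 0.293 and 0.226 FPKM. DREB2C had 0.0777 and 0.0822 FPKM, CBF4, which is tied to drought, had 0.0796 and 0.0421 FPKM, and DDF2 was listed at 0. All 3 CBF factors thus stood above all 6 of these factors in both replicates.

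Of 10 activators of CBF genes, 4 were above 1 FPKM, near the 47.7% of all genes, and their median of 0.770 FPKM was near the 0.823 FPKM of all genes. ICE1, a bHLH activator of CBF3, had 11.6 and 10.1 FPKM, and its paralogue ICE2 had 9.25 and 9.62 FPKM. Both were below CBF3 and CBF2 in level and above CBF1. BZR1, of the brassinosteroid response, had 6.33 and 7.13 FPKM, and OST1, a kinase that stabilises ICE1, had 1.39 and 1.64 FPKM. CES was listed at 0. The morning clock factors CCA1 and LHY, which activate CBF genes, had means of 0.568 and 0.478 FPKM, chosen for mention after their values were seen. The sources used here do not give the time of day of sampling, and its part in the CBF levels was not tested.

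Of 11 repressors of CBF genes, 9 were above 1 FPKM, against 47.7% of all genes, with a median of 2.80 FPKM. Only 3 were above 5 FPKM, a share near that of all genes, since CBF1 at 4.99 FPKM was above 72.7% of genes. SOC1, a MADS box repressor and flowering gene, led at 148 and 142 FPKM, followed by PIF4, a phytochrome-interacting factor, at 29.5 and 32.6 FPKM. ZAT12, a zinc finger repressor, had 8.03 and 6.38 FPKM, and EIN3, of the ethylene response, 4.83 and 4.90 FPKM. MYB15 was the lowest at 0.106 and 0.153 FPKM. SOC1 and PIF4 were the repressors with levels above that of CBF3.

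All 8 factors that respond to cold in parallel with CBF were above 1 FPKM, against 47.7% of all genes, with a median of 8.51 FPKM. Of the 8, 5 were above 5 FPKM, beside which CBF1 at 4.99 FPKM was above 72.7% of all genes. RAV1 led at 53.6 and 48.7 FPKM, ERF6 had 14.5 and 14.6, ZAT10 14.3 and 14.4, and ERF5 10.1 and 9.29 FPKM. CZF1 was the lowest at 2.95 and 2.69 FPKM. Several of these factors, ZAT10 and ERF5 among them, also respond to touch and wounding. In a list of 4 touch-induced genes, 3 were above 1 FPKM, against 47.7% of all genes, and so short a list cannot be set apart from that share. TCH2 had 109 and 96.5 FPKM, TCH3 15.0 and 13.2, TCH4 10.2 and 9.54, and WRKY40 0.890 and 0.919 FPKM. The CBF genes are touch-responsive as well, and a part of handling in their levels was not tested.

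Other cold-regulated targets ran from 1.01 to 317 FPKM, against 7.75 to 4871 FPKM for the COR genes. All 10 of them were above 1 FPKM, as were 47.7% of all genes, with a median of 42.7 FPKM against 57.6 FPKM for the COR genes. COR413PM1, a membrane protein, had 330 and 303 FPKM, close to COR15B. LEA14 had 245 and 222 FPKM, and the chloroplast envelope proteins COR413IM2 and COR413IM1 had 182 and 158, and 158 and 138 FPKM. ADH1, alcohol dehydrogenase, was the lowest at 0.996 and 1.01 FPKM. KIN2 and COR15A were above every gene of this list in both replicates.

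Of 10 dehydrin genes, COR47 and ERD10 among them, 6 were above 1 FPKM, not far from the 47.7% of all genes. The pair came next in level below HIRD11 at 621 and 543 FPKM and ERD14 at 559 and 527 FPKM, and AT4G39130 was listed at 0. Of 11 genes of ABA and drought responses, 10 were above 1 FPKM, against 47.7% of all genes, with a median of 2.95 FPKM. Of the 11, 4 were above 5 FPKM, beside which CBF1 at 4.99 FPKM was above 72.7% of all genes. RD22 led at 54.5 and 63.3 FPKM, RAB18, an ABA-induced dehydrin, had 19.8 and 21.5, the caleosin RD20 had 7.23 and 6.82, and the NAC factor RD26 had 5.50 and 5.12 FPKM. RD29B was the lowest of that list, far below RD29A, its neighbour.

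**Figure D5:**
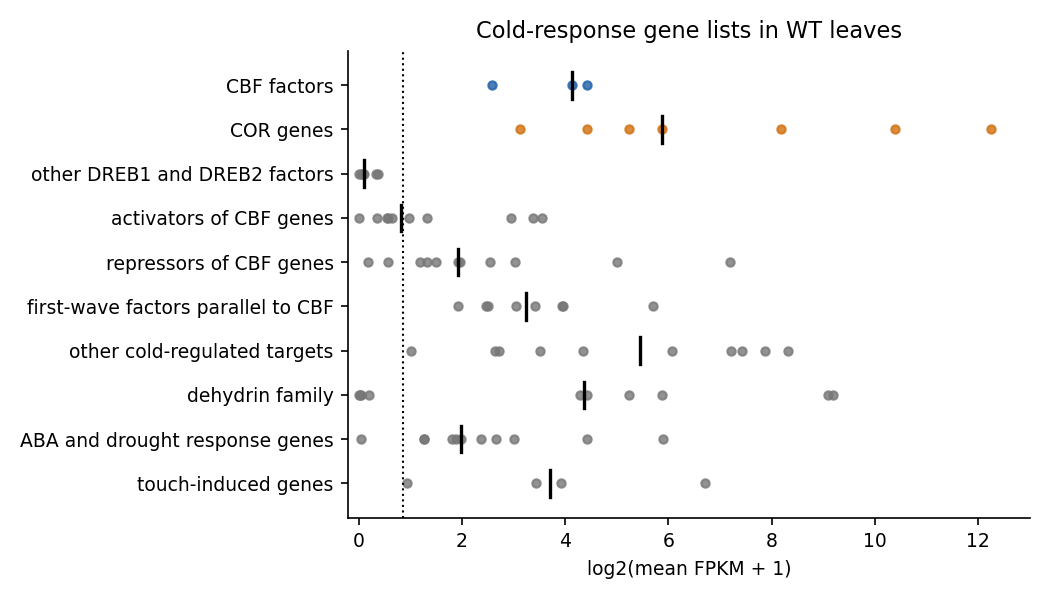
Mean FPKM of each gene on the log2(FPKM + 1) scale for the CBF factors, the COR genes and 8 further lists without the tissue markers, with the CBF factors in blue, the COR genes in orange and other lists in grey, black bars at list medians and a dotted line at the median of all genes (0.823 FPKM). Among the lists plotted, the COR genes and the other cold-regulated targets have the highest medians, at 57.6 and 42.7 FPKM, and the other DREB1 and DREB2 factors the lowest, at 0.0704 FPKM.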

How the data were processed

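By their labels, leaves of 3-week-old WT plants gave the 2 mRNA-seq libraries. The methods describe these as biological replicates read as paired ends of 150 bases. The authors aligned reads to TAIR10 with TopHat2 2.0.9 and computed with Cufflinks 2.1.1 the deposited FPKM values of coding genes (versions also in the submitters' processing notes). The annotation release, use of strand and treatment of multi-mapped reads were not given in the labels or methods. The table pairs gene identifiers with values, and symbols come from the gene lists and RefSeq.

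Means, SDs and ratios were computed in Python 3.11.15 with numpy 2.4.6 and pandas 2.3.3, with a pseudocount of 1 FPKM on log2 scales, no filter, and no test, since 1 condition was measured. Steps in the lowest values of single-transcript genes gave the value of 1 read. Of 512 and 479 such genes near 1 read, 48.8% and 50.9% lay within 2% of it, so exact counts were not recovered and read numbers are approximate. The value of 1 read was sought only within a preset range. Ratio and step calculations were tested on simulated data whose totals lay inside that range, so a wrong range could not have been seen.

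The members and the 14 lists (91 genes) were chosen with earlier results of these data known. The text names every member, the up to 4 highest genes and the lowest of each list, and the nearest coding genes. Positions and sequences are from RefSeq TAIR10.1, to which 26714 identifiers (97.5%) matched. That annotation may not be the one used for counting. Alternatives were other pseudocounts, thresholds, scales and windows, and each replicate alone. The 4acC-IP and input samples were not analysed here.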

Additional observations from a re-analysis of the deposited data

How the results depend on the processing

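No paired analysis was possible because expression values exist here for 1 condition, so that replicate numbers link no groups. Of 97 alternatives over 22 results, 73 left the value within the spread between replicates or the count within 1.5-fold. For the median levels, the share and the paralogue ratios, 1 replicate alone was nearly bound to stay within that spread. The spread comes from the same 2 replicates, so the 73 partly reflects how it was set. With 0.1 or 0.01 FPKM added in place of 1, the log2 ratios became 0.65 and 0.65 for COR47 over ERD10, 1.71 and 1.73 for CBF2 over CBF1, 2.02 and 2.04 for CBF3 over CBF1, and 5.87 and 7.46 for RD29A over RD29B. With nothing added, a setting chosen after seeing the data, they were 0.65, 1.73, 2.04 and 7.83. These values move because an added constant weighs most on low levels, RD29B above all. The median COR level was 47.2 FPKM without COR15B and 47.2 FPKM without KIN2, both chosen after seeing the data. The mean share of the FPKM sum was 0.676%, and became 0.575% when weighted by exon length, 0.865% without the 10 highest genes in the sum, and 0.183% without KIN2, the last chosen after seeing the data. The median percentile of the members was 89.1 and fell to 86.7 among genes above 0, and was 89.0 to 89.4 with either replicate alone. At a threshold of 5 FPKM the counts were 3 for repressors, 5 for parallel factors and 4 for ABA and drought genes. A level of 4.99 FPKM, that of CBF1, was above 72.7% of all genes, and the share of repressors above 5 FPKM was near that of all genes. The median ratio between replicates changed sign, to 0.02, when centred on genes above 1 FPKM, so no direction is given to it. The CCGAC count rose from 2 to 7 members in the 500-base window. RD29B is limited by depth.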
